A study of Mus musculus with 37 samples.

Results

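Short CDR3 clonotypes are the T cell receptor beta (TRB) sequences whose complementarity-determining region CDR3, the receptor loop that lies over the peptide, has 11 or fewer residues. A clonotype here is 1 nucleotide CDR3 with its variable (TRBV) and joining (TRBJ) segment in 1 library, counted in reads. All entries of the 37 clonotype tables were sorted by the length of the amino acid CDR3, with no other criterion. Of 1704980 clonotypes, 62689 (3.68%) were short, and they held 2534393 of 47131913 reads (5.38%). They comprised 42372 nucleotide CDR3s and, after merging entries with the same TRBV, TRBJ and amino acid CDR3, 33909 merged clonotypes. They were compared with the 1583810 clonotypes of 12 to 16 residues (92.9%). At the limit itself, 50696 clonotypes had 11 residues, just inside it, and 144173 had 12, just outside it.

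The libraries were made from lymph node DNA of 37 mice, 1 library per mouse, so reads count copies of rearranged genes, whether or not these are transcribed. Of the mice, 32 were MMTV-PyMT females, in which the MMTV promoter drives the polyoma middle T oncogene in mammary epithelium, and 5 were FVBN mice of the group WTNT, whose name is not explained in the labels. The treatment protocol speaks of MMTV-PyMT mice only and no drug is listed for WTNT mice, so genotype and treatment cannot be told apart in that comparison. All 32 MMTV-PyMT mice received PTX (paclitaxel, a microtubule-binding chemotherapy), which began at 85 days of age and was repeated at 5-day intervals with 10 mg/kg. Those of PLX groups also received PLX3397 (pexidartinib, an inhibitor of the macrophage receptor CSF1R) in chow at 40 mg/kg per day from 80 days. Those of aPD-1 groups received in addition an antibody against PD-1, an inhibitory receptor on T cells. It was begun at 87 days of age with 1 mg and continued with 0.5 mg at 5-day intervals. The protocol also names control chow and an isotype antibody, and the labels do not tie them to groups; the mice got BrdU, a label of dividing cells, before collection. The groups PLX+PTX+aPD-1_R and PLX+PTX+aPD-1_NR, called R and NR here, differ by a suffix that the labels do not explain. The prefixes d105 and d95 give the day listed for each mouse, called the day here. If it is age, as the starts of treatment are, MMTV-PyMT mice of d105 were older and treated for longer. The d105 libraries came from 6 mice of R, 4 of NR, 6 of PLX+PTX, 2 of PTX and 5 of WTNT. The d95 libraries came from 5 mice of R, 3 of NR, 3 of PLX+PTX and 3 of PTX.

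Libraries held 1090573 to 2831566 reads at d105 and 90648 to 917752 at d95. Every d105 library was deeper than every d95 library. Mouse numbers also separate the days, with 37582 to 37881 at d105 and 38843 to 38856 at d95, and WTNT mice have none listed. Effects of the day, of sequencing yield and of the sets of mice behind these numbers cannot be told apart. The reads are PCR products with no molecular identifiers, and intervals cover counting error only. TRB DNA carries no marker of tissue, so the lymph node label could not be checked. In bulk samples, fewer cells of a clone and fewer reads per cell cannot be told apart.

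A CDR3 is built when a V, a D and a J segment are cut and joined in the thymus. Exonucleases trim the ends of the segments, and terminal transferase adds bases that no segment encodes. Short CDR3s arise from deep trimming, few added bases or short segments, and a sequence that needs few added bases is reached more often by chance joining, so that unrelated animals can share it.

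TRBV4 TRBJ2-7 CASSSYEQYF was 1 of 4 short clonotypes found in 36 of 37 libraries, and of these it held the most reads. It is shown because mice reached the same amino acids by different bases. Its leading nucleotide CDR3 held 68.4% of its reads and was present in all 36 libraries, and the next 3 of its 13 forms held 9.17%, 9.11% and 8.95%. Each is printed 5′ to 3′, with capitals for bases unlike the leading form.
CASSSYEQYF form 1: tgtgccagcagctcctatgagcagtacttc
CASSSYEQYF form 2: tgtgccagcagctcTtatgagcagtacttc
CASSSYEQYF form 3: tgtgccagcagctcAtatgagcagtacttc
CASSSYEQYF form 4: tgtgccagcagctcGtatgagcagtacttc

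Below are the leading nucleotide forms of further widely shared short clonotypes, with the 12-residue clonotype just outside the limit last. Capitals mark the bases assigned to neither V nor J. The assignment tolerates single mismatches, so a base that differs from a segment can stand in lower case. The first 2 have no capital, and the rest run through a growing block of G. They are chosen examples, and the order is part of the choice. TRBV1 TRBJ2-5 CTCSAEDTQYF (36 libraries) and TRBV24 TRBJ2-7 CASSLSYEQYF (35 libraries) are not printed, and their leading forms also have no base between V and J.
TRBV2 TRBJ2-5 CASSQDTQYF: tgtgccagcagccaagacacccagtacttt
TRBV24 TRBJ2-7 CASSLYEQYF: tgtgccagcagtctgtatgagcagtacttc
TRBV3 TRBJ2-7 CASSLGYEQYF: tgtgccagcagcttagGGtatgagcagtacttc
TRBV1 TRBJ2-7 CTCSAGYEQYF: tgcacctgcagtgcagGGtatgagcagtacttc
TRBV1 TRBJ2-7 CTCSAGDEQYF: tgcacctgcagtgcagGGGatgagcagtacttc
TRBV3 TRBJ2-7 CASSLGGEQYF: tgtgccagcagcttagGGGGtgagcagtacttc
TRBV3 TRBJ2-7 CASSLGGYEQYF: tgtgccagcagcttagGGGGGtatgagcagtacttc

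Short CDR3s lost more of both segments and kept fewer bases between them. The mean number of V bases deleted per clonotype was 3.97 ± 0.106 in short clonotypes, against 2.87 ± 0.0408 in those of 12 to 16 residues (SD over 37 libraries). J bases deleted averaged 5.93 ± 0.140 in short clonotypes, against 3.21 ± 0.0642. Bases between V and J averaged 5.11 ± 0.173 in short clonotypes, against 10.0 ± 0.197. The ranges over libraries did not overlap for any of these measures. Length is the sum of these terms, so they describe how the 10.0 bases of mean difference divide and are no test: 4.88 lay between the segments, 3.65 in J and 1.35 in V. A D segment was assigned to 32.9% ± 1.60 of short clonotypes, against 78.8% ± 1.051. No base at all lay between V and J in 9.52% ± 1.31 of short clonotypes, as in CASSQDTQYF, against 0.790% ± 0.0908.

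**Figure D1:**
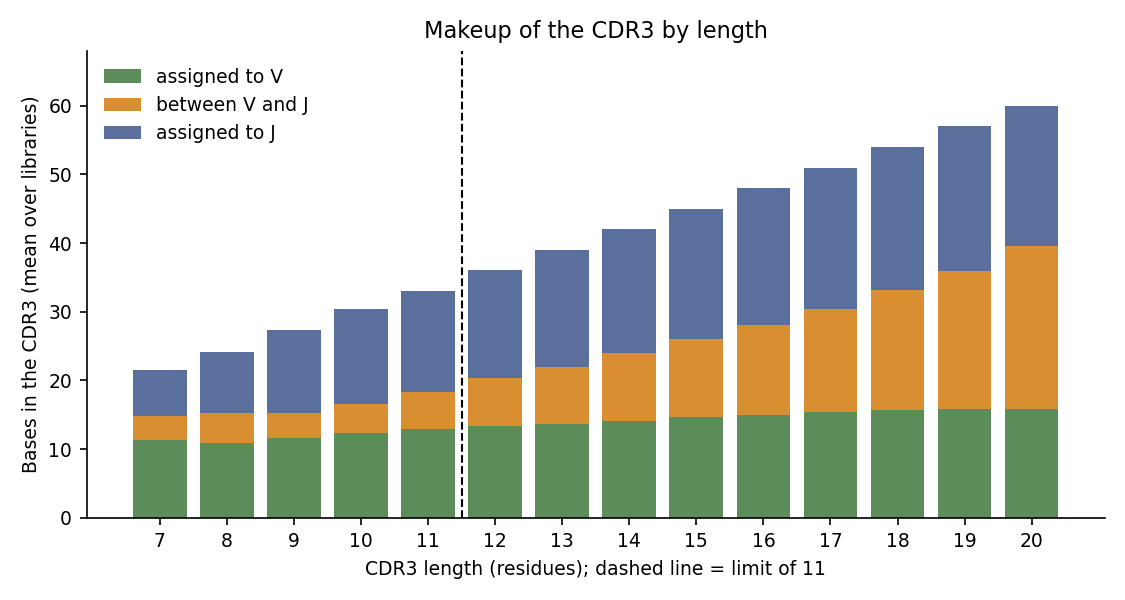
Mean number of CDR3 bases (vertical axis, averaged over libraries) assigned to V, to J and to neither, by CDR3 length in residues (horizontal axis), with the limit of 11 residues as a dashed line. Up to 11 residues the J stretch grows most (6.58 bases at 7 residues and 14.7 at 11), and the stretch between the segments grows less (3.58 and 5.37). On average 5.11 bases lay there in short clonotypes, against 10.0 in those of 12 to 16 residues.

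The shortest entries often lacked the conserved ends of a CDR3. The first cysteine and last phenylalanine, which frame the loop, were both present in 98.5% of clonotypes of 11 residues, in 39.4% of the 180 clonotypes of 5 residues and in 34.1% of the 44 of 4 residues. Single-read clonotypes made up 52.8% at 5 residues and 50% at 4 residues, against 15.1% at 11. By the number of libraries they led with TRBV1 TRBJ1-6 CTCS (4 residues, 7 reads in 5 libraries), TRBV3 TRBJ2-1 CASSF (5 residues, 210 reads in 17 libraries), TRBV24 TRBJ2-1 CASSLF (6 residues, 18 reads in 7 libraries), TRBV24 TRBJ2-3 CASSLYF (7 residues, 34 reads in 12 libraries) and TRBV5 TRBJ2-7 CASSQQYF (8 residues, 145 reads in 5 libraries). Clonotypes of 10 or 11 residues made up most of the short class, with 9253 and 50696 entries.

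Segment use in short clonotypes stood apart from that in 12 to 16 residue clonotypes of the same libraries. TRBJ2-7, the joining segment that leaves the ending YEQYF, held 55.1% ± 3.64 of short reads, against 25.0% ± 1.84 of the reads of 12 to 16 residues. Its lowest short library (50.0%) lay above its highest library of the longer class (29.1%). The log2 ratio was 1.14 (edgeR quasi-likelihood with the library as a block, adjusted p = 5.27e-55), and it was higher in 37 of 37 libraries. All 23 of the 23 segments tested passed the threshold (100%), 9 of them higher and 14 lower in short clonotypes, so a call by itself does not single out a segment.

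Among V segments, TRBV29 held 16.4% ± 3.01 of short reads, against 8.18% ± 1.74 (log2 1.02). TRBV20 held 1.75% ± 0.940, against 0.735% ± 0.410 (log2 1.29), and TRBV30 held 1.87% ± 0.704, against 0.743% ± 0.179 (log2 1.27). These 3 were higher in 37, 37 and 35 of 37 libraries. TRBV4 held 11.3%, against 6.96% (log2 0.70), TRBV19 held 14.8%, against 10.3% (log2 0.52), and TRBV26 held 7.71%, against 6.17% (log2 0.31). TRBV3 was nearly level, with 10.9% against 10.2% (log2 0.10, edgeR adjusted p = 0.0239), was higher in 22 of 37 libraries, and its log2 was -0.15 when each clonotype was counted once.

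The lower segments were led by TRBJ2-2, with 2.22% ± 0.473 of short reads against 9.12% ± 0.633 (log2 -2.06), then TRBJ1-3 (log2 -1.78), TRBJ1-4 (-1.68), TRBV5 (-1.56) and TRBJ1-6 (-1.39). Of the segments with larger shares, TRBV1 held 9.93% of short reads, against 16.6% (log2 -0.75), and TRBJ2-1 held 7.85%, against 11.2% (log2 -0.53). Shares form a composition, so the sign of a small change depends on the scaling. TRBV24 (17.2% against 21.01%, log2 -0.31) turned to 0.19 with DESeq2 size factors, TRBJ2-5 (10.9% against 12.7%, log2 -0.23) to 0.27 with DESeq2 and 0.06 with TMM, and TRBV23 (log2 -0.45) to 0.02 with DESeq2 and to 0.39 counted once. TRBJ2-1 was at -0.24 with TMM and at -0.03 with DESeq2, where its call was lost (DESeq2 adjusted p = 0.347). TRBJ1-1 (9.35% against 8.59%, log2 0.12) kept its sign in these settings.

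**Figure D2:**
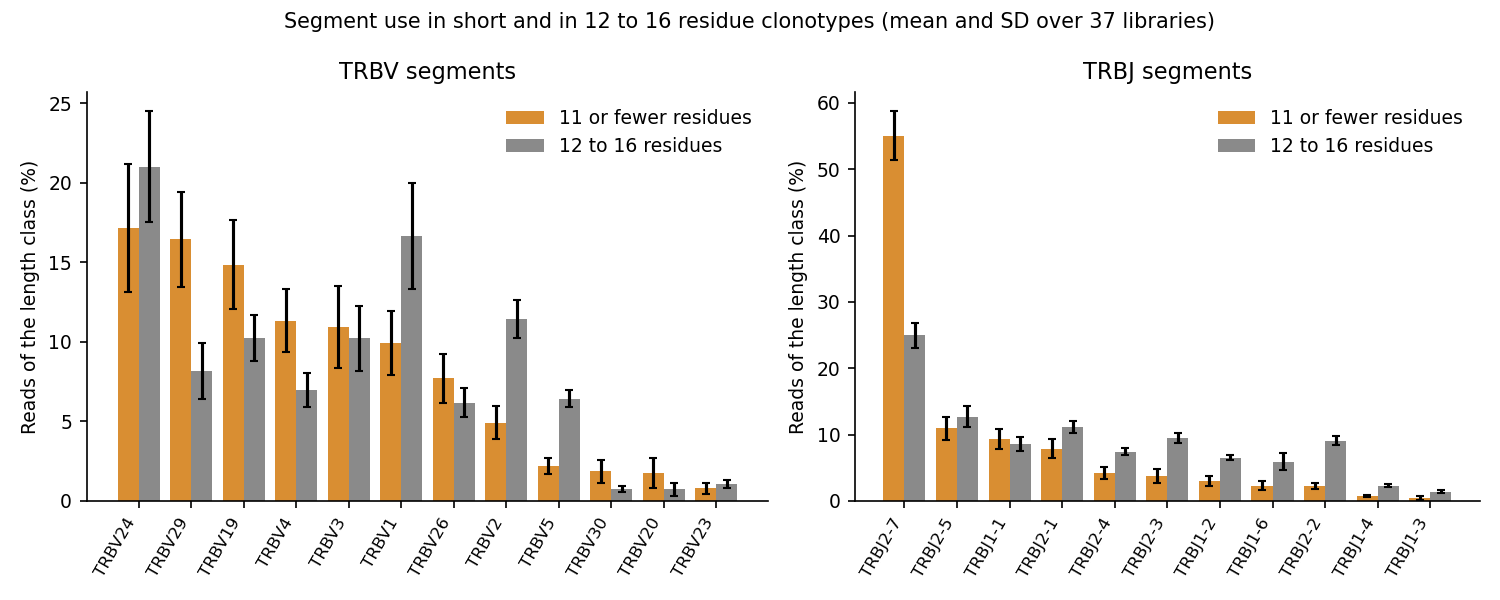
Percent of reads of the length class (vertical axis) for each TRBV and TRBJ segment tested, in short clonotypes and in those of 12 to 16 residues, as mean and SD over 37 libraries. TRBJ2-7 alone held 55.1% of short reads, against 25.0%.

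The segments differ in how many bases they bring to the CDR3 before trimming, as read from the clonotypes themselves. TRBJ2-7 brings 19, the fewest of the 11 J segments tested, TRBJ1-1 and TRBJ1-2 bring 20, TRBJ2-2 and TRBJ1-4 bring 23 and TRBJ1-6 brings 25. TRBV20 and TRBV30 bring 14, TRBV19 brings 16 and the other V segments tested bring 17. Across segments, this length went with the log2 ratio at Pearson's r = -0.70 and Spearman's rho = -0.77 for the 11 J segments, and at r = -0.63 and rho = -0.67 for the 12 V segments. These coefficients are descriptions over segments of the same libraries, which share the total of each class. Segments of equal length still differed: TRBV29 and TRBV5 both bring 17 bases and had log2 ratios of 1.02 and -1.56. Of all clonotypes of a segment, 13.3% were short for TRBV30, 10.5% for TRBV20, 7.57% for TRBV29 and 7.32% for TRBJ2-7, against 1.20% for TRBV5 and 0.998% for TRBJ2-2.

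**Figure D3:**
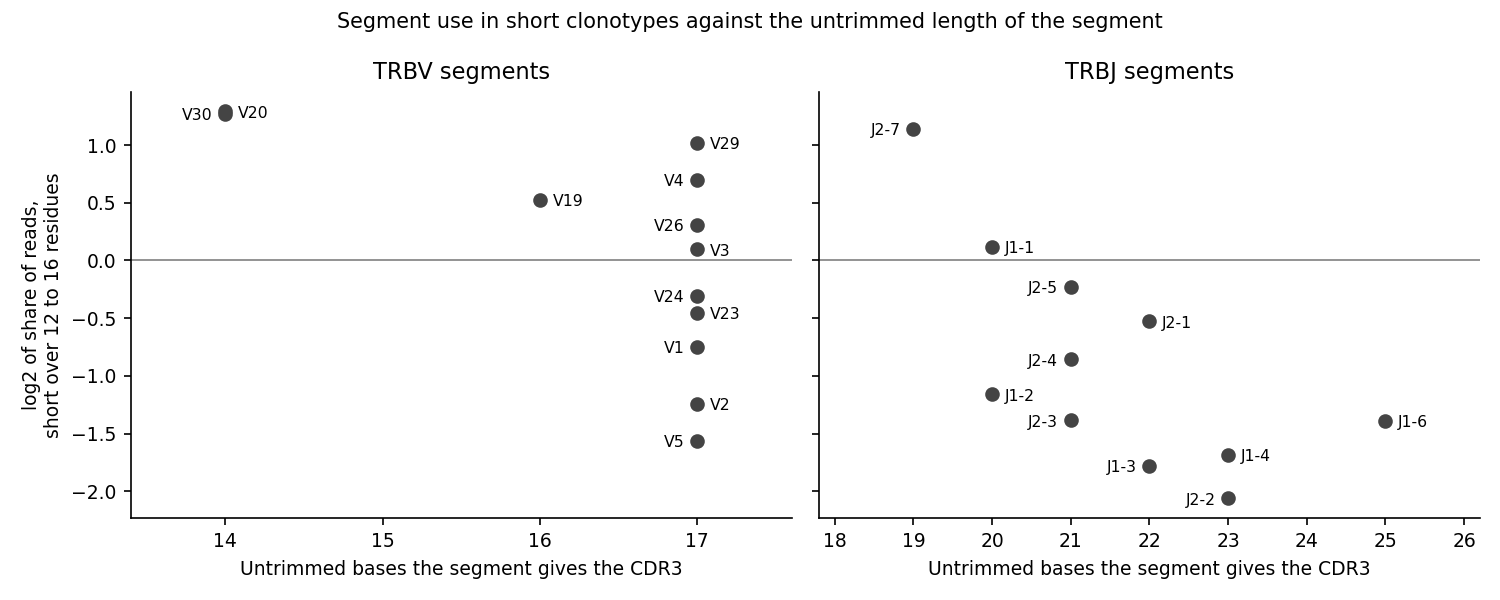
The log2 ratio of the share of reads in short over 12 to 16 residue clonotypes (vertical axis) against the untrimmed bases each segment brings to the CDR3 (horizontal axis), 1 point per TRBV or TRBJ segment. TRBJ2-7, with 19 bases, lies highest among the J segments at 1.14.

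TRBJ2-7 was the partner in each of the 6 most used V-J pairs of short clonotypes. TRBV29 with TRBJ2-7 held 9.56% ± 1.64 of short reads, against 2.05% ± 0.309 of the reads of 12 to 16 residues. TRBV19 with TRBJ2-7 held 9.19% against 3.63%, TRBV24 with it 8.96% against 4.70%, TRBV4 with it 8.29% against 2.83%, TRBV3 with it 8.16% against 4.50% and TRBV26 with it 5.56% against 1.85%. TRBV19 with TRBJ1-1 held 2.19% against 0.837%.

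Names of V segments carry a limit that bears on every result by V. Each library lists a nucleotide CDR3 once, under 1 V name, with 0 listed again. The V name of a CDR3 could differ between libraries. Whether such libraries held different rearrangements with the same CDR3 or 1 rearrangement under different names was not tested. Of 6862 short nucleotide CDR3s found in at least 2 libraries, 2961 (43.2%) stood under more than 1 V name, and 71 (1.03%) under more than 1 J name. In clonotypes of 12 to 16 residues these shares were 44.3% and 0.691%. By the V bases kept, the share with more than 1 V name was 53.8% at 9 or fewer bases, 52.5% at 10 or 11, 56.7% at 12 or 13, 31.4% at 14 or 15, 23.9% at 16 or 17 and 26.7% at 18 or more. The check was made after the data were seen.

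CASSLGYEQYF with TRBJ2-7 shows this. It stood under TRBV3 in 36 libraries, TRBV24 in 32, TRBV29 in 30, TRBV26 in 26, TRBV4 in 9, TRBV19 in 8 and TRBV2 in 4. Its leading nucleotide form under TRBV26 was letter for letter the leading form under TRBV24, and it was filed under TRBV24 in 20 libraries and under TRBV26 in 11. Capitals again mark bases of neither V nor J.
TRBV26 TRBJ2-7 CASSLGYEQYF: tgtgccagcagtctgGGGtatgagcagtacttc
TRBV24 TRBJ2-7 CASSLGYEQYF: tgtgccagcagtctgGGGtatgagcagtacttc
All 15 nucleotide forms under TRBV26 stood elsewhere under another V name, as did 18 of the 20 under TRBV24 and 9 of the 14 under TRBV3, but 0 of the 11 under TRBV29.

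Within a library, short clonotypes were larger than those of 12 to 16 residues. A short clonotype had 39.9 ± 15.5 reads on average, against 28.1 ± 8.91 (SD, n = 37). The mean log2 ratio was 0.48 ± 0.17, a 1.40-fold difference, and it was above 0 in 37 of 37 libraries (sign-flip permutation test, 2-sided, p = 1e-05, the smallest that 100000 resamples give, adjusted p = 1e-05 over 3 tests). The fold was 1.51 in d105 libraries and 1.23 in d95 libraries, 1.26 within V-J pairs and 1.30 after thinning to 222369 reads. Relative to the mean of its library, clone size was highest at 10 residues, at 1.57 ± 0.197, then 1.39 ± 0.151 at 11, 1.26 ± 0.0895 at 12, 0.998 ± 0.0130 at 14 and 0.783 ± 0.0737 at 16. Of the 100 most abundant clonotypes of a library, 9 to 25 were short, with a median of 17, while 3.68% of all clonotypes were short. The most abundant short one held 0.0217% to 0.160% of reads. It was the most abundant of any length in d105 R replicate 4, d105 PLX+PTX replicate 5 and d95 R replicate 3.

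Short clonotypes were also found again in other mice more often, by a small margin that depended on the lengths on both sides of the limit. Of the merged short clonotypes of a library, 44.8% ± 6.23 were found in another library of the same day, against 41.0% ± 8.26. The difference of 3.84 ± 2.73 percentage points was positive in 36 of 37 libraries (permutation test, p = 1e-05, the smallest possible, adjusted p = 1e-05). It was 2.08 at d105 and 6.72 at d95. With a limit of 10 residues it turned to -5.80 (35.2% against 41.0%), since 40.3% ± 5.46 were found again at 10 residues and 23.6% ± 7.38 at 9, against 47.2% ± 6.74 at 11. Clonotypes of 12 and 13 residues had similar means over both days, at 47.1% ± 7.95 and 46.9% ± 8.69, and the share was 36.4% ± 8.49 at 15 residues and 23.1% ± 7.55 at 16. These SDs include the difference between days, and single lengths were not tested. At d105 alone the share was 52.0% at 11 residues, 53.0% at 12 and 53.5% at 13. At d95 it ran the other way, with 39.3%, 37.3% and 36.2%. On nucleotide CDR3s, which carry no V name, the difference was larger, with 35.7% ± 6.48 against 24.3% ± 6.41. On clonotypes merged without the V name it was 3.46, with 54.6% against 51.1%.

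More short clonotypes had several nucleotide forms within a library. The share was 7.32% ± 1.57, against 6.23% ± 1.67, a difference of 1.09 ± 0.698 percentage points that was positive in 36 of 37 libraries (permutation test, p = 1e-05, the smallest possible, adjusted p = 1e-05). It turned to -0.747 with a limit of 10 residues and was 2.69 without the V name (12.98% against 10.3%).

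**Figure D4:**
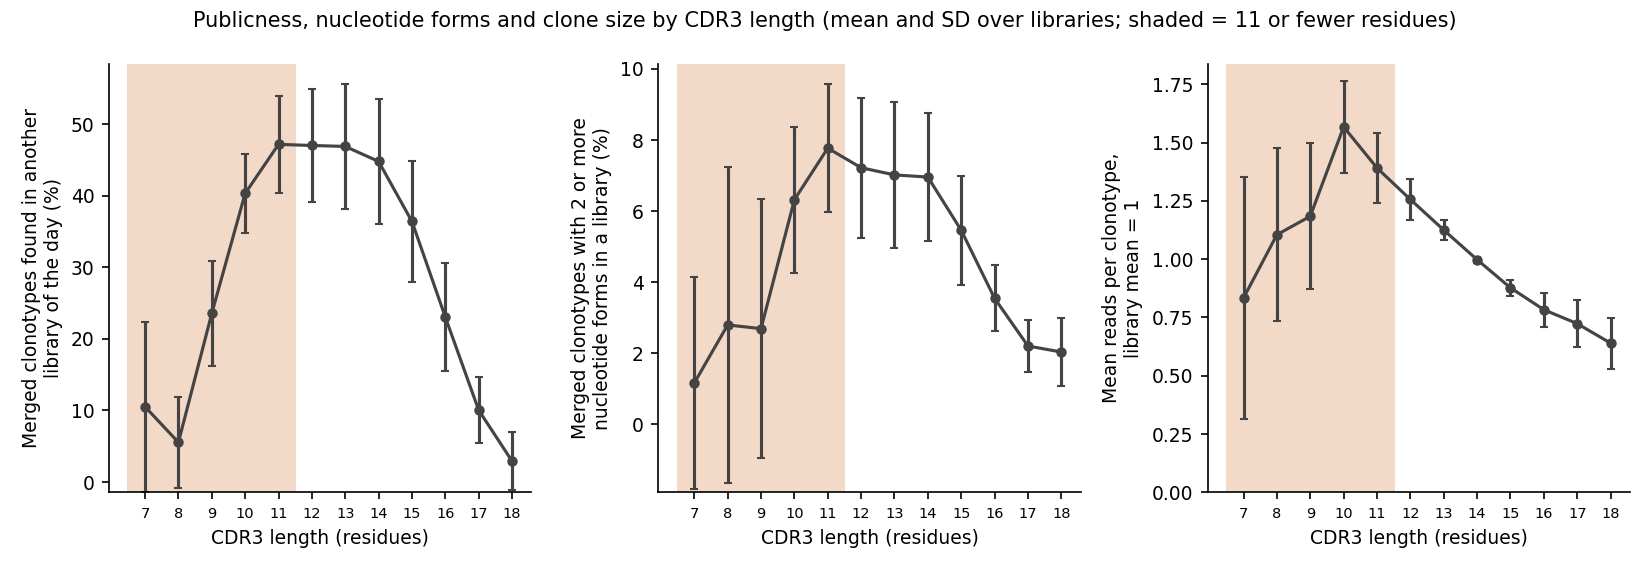
By CDR3 length in residues (horizontal axes), the percent of merged clonotypes found in another library of the day, the percent with at least 2 nucleotide forms and the mean reads per clonotype relative to the library mean, as mean and SD over libraries, with short lengths shaded. As a mean over both days, which run in opposite directions, the share found again is close to level from 11 to 13 residues (47.2%, 47.1% and 46.9%). Clone size peaks at 10 residues (1.57).

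Most merged short clonotypes were private: 27053 of 33909 (79.8%) were found in 1 library, and the same held for 79.4% of those of 12 to 16 residues. In at least 50% of libraries were 156 short clonotypes (0.460%), against 2398 of the 915285 longer ones (0.262%). The mean number of bases between V and J was 2.69 in these 156, against 6.78 in the private short ones. The mean number of nucleotide forms was 9.26 in the 156, against 1.02. The longer class showed the same contrasts, so they are not particular to short clonotypes. Its 2398 widely found clonotypes had 7.26 bases between V and J, against 11.47 in its private ones. They had 14.12 nucleotide forms on average, against 1.02. More libraries also give more chances to see a form, and that part was not tested. Of the 156, 131 had 11 residues and 25 had 10, 97 used TRBJ2-7, 34 used TRBJ2-5 and 13 used TRBJ2-1. By V name, 41 stood under TRBV1, 26 under TRBV3, 24 under TRBV24 and 19 under TRBV4. Together they held 17.03% ± 1.90 of short reads and 0.903% ± 0.108 of all reads (n = 37).

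Of the 33909 merged short clonotypes 0 were in all 37 libraries, and 3 of the 915285 of 12 to 16 residues were (0.000328%). At so small a share these counts show no contrast between the classes. TRBV4 TRBJ2-7 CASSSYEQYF held 0.0381% ± 0.0173 of reads and was missing only from d95 NR replicate 1, the library with the fewest reads, where a count of 0 allows up to 3 reads. Also in 36 libraries were TRBV3 TRBJ2-7 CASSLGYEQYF (0.0194% ± 0.00804, 14 nucleotide forms), TRBV1 TRBJ2-5 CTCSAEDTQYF (0.0193% ± 0.0116, 10 forms) and TRBV1 TRBJ2-7 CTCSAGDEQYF (0.00363% ± 0.00208, 17 forms). In 35 libraries were TRBV1 TRBJ2-5 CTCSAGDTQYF, TRBV24 TRBJ2-7 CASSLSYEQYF, TRBV3 TRBJ2-7 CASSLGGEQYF and TRBV1 TRBJ2-7 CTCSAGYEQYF, the last with the most nucleotide forms of any short clonotype, 25. TRBV2 TRBJ2-5 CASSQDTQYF (34 libraries) was the opposite case, with 96.6% of its reads in 1 of 5 forms, and TRBV24 TRBJ2-7 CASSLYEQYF was in 33. The most widely found clonotype of 12 residues, TRBV3 TRBJ2-7 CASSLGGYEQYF, was in 37 libraries with 31 forms and 0.0203% ± 0.0139 of reads.

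The merged short clonotype with the largest share in a library was taken in each of the 9 groups, with its nucleotide forms summed. Of these leaders, 1 was found in a single library, 2 were found in 2 libraries and 3 in 32 to 35 libraries. The largest single short form was smaller than the leader in d105 PTX replicate 2 (0.0284%), d95 PLX+PTX replicate 2 (0.0741%), d95 R replicate 3 (0.0841%) and d95 PTX replicate 1 (0.0633%). In d105 R replicate 4, TRBV24 TRBJ2-3 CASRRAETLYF held 0.160% of reads (95% Wilson interval 0.154 to 0.166) and had 3131 of the 3133 reads it had in the series. It is shown because it is the largest short clonotype by share, with capitals for the 4 bases of neither V nor J.
TRBV24 TRBJ2-3 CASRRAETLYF: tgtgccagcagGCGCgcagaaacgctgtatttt
In d95 NR replicate 1, TRBV19 TRBJ2-7 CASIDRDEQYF held 0.147% (0.124 to 0.174) on 133 reads and was found in no other library. In d105 NR replicate 2, TRBV3 TRBJ2-7 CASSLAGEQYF held 0.112% (0.107 to 0.117), and in d105 WTNT replicate 4, TRBV29 TRBJ2-5 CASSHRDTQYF held 0.0895% (0.0848 to 0.0944). In d105 PLX+PTX replicate 5, TRBV24 TRBJ2-3 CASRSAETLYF held 0.0676% (0.0638 to 0.0715). In the other groups the leader ended in the widely shared LSYEQYF or LGYEQYF with TRBJ2-7: TRBV24 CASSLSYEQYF with 0.117% (0.106 to 0.129) in d95 PLX+PTX replicate 2 and 0.0499% (0.0459 to 0.0543) in d105 PTX replicate 2, TRBV19 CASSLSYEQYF with 0.10001% (0.0910 to 0.110) in d95 R replicate 3 and TRBV24 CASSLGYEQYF with 0.0806% (0.0726 to 0.0895) in d95 PTX replicate 1. Under the V name TRBV19, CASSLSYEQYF was found in 6 libraries only.

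The share of reads in short clonotypes lay between 4.77% and 5.89% in all 37 libraries, and no comparison of treatments or genotypes passed the threshold (16 tests, exact permutation tests, 2-sided, or resampled between days). The p-values measure the spread between mice. At d105, R mice had 5.13%, a median of 5.41% and 5.75% as lowest, middle and highest share, and the 4 NR mice had 5.26%, 5.30%, 5.53% and 5.88%. The groups overlapped, and the difference was -0.0494 percentage points (exact permutation p = 0.771, adjusted p = 0.823).

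The PLX+PTX mice of d105 had 5.25% to 5.89% (mean 5.57% ± 0.237, n = 6), against 4.77% and 5.10% in the 2 PTX mice. The groups did not overlap, and the difference was 0.639 percentage points (exact permutation p = 0.0357, the smallest that 28 regroupings allow, adjusted p = 0.171). Both PTX mice belong to the higher of 2 blocks of mouse numbers and 4 of the 6 PLX+PTX mice to the lower. The higher block holds 2 mice of each group, and there the difference was 0.386, with no overlap (exact permutation p = 0.333, the smallest that 6 regroupings allow). By the normalized clone count the difference of all 8 mice was 0.442 (exact permutation p = 0.107). At d95 the 3 PLX+PTX mice had 4.88%, 5.00% and 5.34%, against 5.20%, 5.43% and 5.56% in the 3 PTX mice. These groups overlapped, and the difference of -0.322 (exact permutation p = 0.2, adjusted p = 0.478) ran the other way. With 3 against 3 mice, p cannot go below 0.1.

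R and NR mice together did not differ from PLX+PTX mice beyond their spread. They had 5.46% ± 0.234 (n = 10), against 5.57% ± 0.237 (n = 6), at d105 (exact permutation p = 0.376), and 5.16% ± 0.252 (n = 8), against 5.07% ± 0.238 (n = 3), at d95 (exact permutation p = 0.612). The 18 MMTV-PyMT mice of d105 had 4.77% to 5.89%, with a median of 5.41%, against 5.07%, 5.09%, 5.10%, 5.17% and 5.24% in the 5 WTNT mice. The WTNT values lay inside the MMTV-PyMT range, and the difference was 0.305 (exact permutation p = 0.0341, adjusted p = 0.171). Without d105 PTX replicate 2 it was 0.345, with an adjusted p of 0.0477 by the same exact permutation test. R, NR and PLX+PTX mice each enter several of these comparisons, which are therefore not independent.

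Counted once, the share of clonotypes that were short separated the days. The 18 MMTV-PyMT libraries of d105 had 3.31% to 3.73% (median 3.62%), against 3.85% to 4.98% (median 4.28%) in the 14 of d95. The days did not overlap, and the mean difference within treatments was -0.698 percentage points (permutation test within treatment, p = 1e-05, the smallest that 100000 resamples give, adjusted p = 0.00016). Sequencing yield moved with it. After thinning the 36 libraries that allowed it to 222369 reads, the ranges were 3.62% to 4.20% at d105 and 3.96% to 4.59% at d95, which overlapped, and the difference was -0.329 (permutation adjusted p = 0.0048). By reads the difference was 0.170 (permutation p = 0.154, adjusted p = 0.478), and by the authors' normalized clone count it was -0.479 (permutation adjusted p = 0.00416), with 4.94% to 6.19% at d105 and 5.58% to 6.49% at d95. The direction by abundance thus depended on the authors' weights for V-J pairs. Within a day, no comparison of the share counted once passed the threshold. The smallest p was that of R against NR at d105, with 3.49% to 3.68% in R mice, against 3.62%, 3.71%, 3.72% and 3.73% in NR mice (difference -0.0983, exact permutation p = 0.0429, adjusted p = 0.171). It turned to 0.0184 after thinning and to 0.00833 with a limit of 10 residues.

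**Figure D5:**
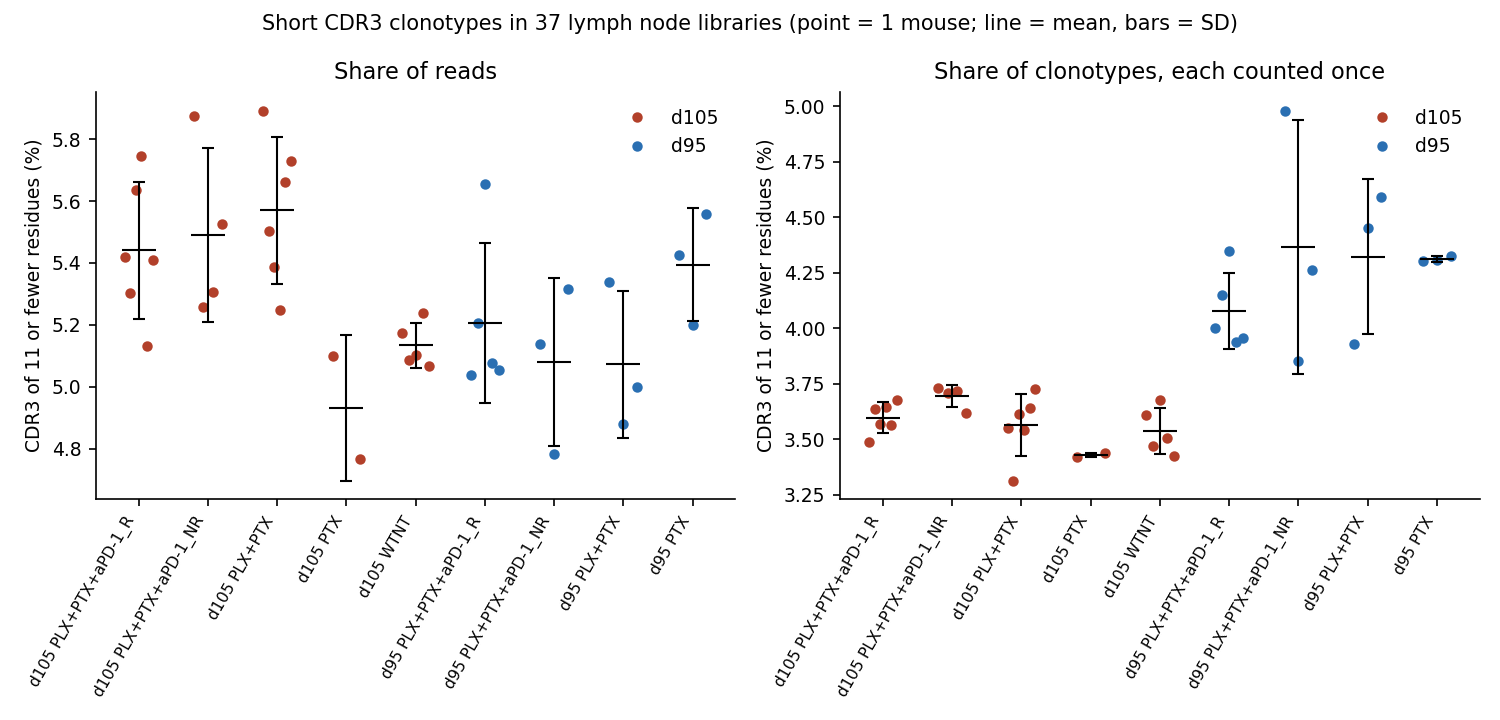
Percent of reads (left) and of clonotypes counted once (right) with a CDR3 of 11 or fewer residues, by group on the horizontal axis, with 1 point per mouse, mean and SD. Shares of reads overlap across days, whereas counted once every d105 MMTV-PyMT library (3.31% to 3.73%) lies below every d95 library (3.85% to 4.98%).

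No segment within short reads was called between treatments, or between MMTV-PyMT and WTNT mice, in the edgeR test. Of 22 segments, 0 were called (0%) in R against NR, R and NR against PLX+PTX, PLX+PTX against PTX and MMTV-PyMT against WTNT at d105, with 3, 1, 3 and 1 at an unadjusted p under 0.05. At d95, 0 were called (0%) in R against NR, R and NR against PLX+PTX and PLX+PTX against PTX, with 1 each at an unadjusted p under 0.05. DESeq2 called 1 in MMTV-PyMT against WTNT and limma 1 in R and NR against PLX+PTX at d105, and each called 0 in the other 6.

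Between days, 11 of 22 segments passed (50%), 6 higher and 5 lower at d105. TRBV29 held 18.3% ± 1.97 of short reads at d105, against 13.4% ± 1.79 at d95 (log2 0.46, edgeR adjusted p = 5.64e-07, n = 18 and 14). TRBV4 held 12.4% against 9.77% (log2 0.32), TRBV20 held 2.12% against 0.980% (1.26), TRBJ1-1 held 10.1% against 7.97% (0.35), TRBJ2-4 held 4.55% against 3.58% (0.35) and TRBJ2-5 held 11.4% against 9.78% (0.26). TRBV24 was lower, with 15.1% ± 1.38 at d105 against 20.3% ± 4.93 at d95 (log2 -0.41, edgeR adjusted p = 0.000179), as were TRBV19 (13.3% against 17.2%, -0.34), TRBJ1-6 (1.91% against 2.85%, -0.60), TRBJ2-7 (53.5% against 58.2%, -0.12) and TRBV1 (9.18% against 10.9%, -0.20). The call for TRBV1 was lost on leaving out any of 16 libraries. Counting each clonotype once left 2 calls, TRBV4 (log2 0.27) and TRBV26 (0.25). TRBV29 was then at -0.03 (edgeR adjusted p = 0.742) and TRBJ1-1 at -0.01 (adjusted p = 0.862), so their direction turned, and the other called segments kept theirs. Day, sequencing yield and range of mouse numbers cannot be told apart here either.

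Shared short clonotypes were tested among merged clonotypes of every length present in 50% or more of the libraries fitted together, with limma on log2 of normalized clone counts per 1000000 (CPM) plus 10. Folds are on that scale and understate changes of low values. At d105, 300 of the 5242 tested were short. R against NR, R and NR against PLX+PTX, PLX+PTX against PTX and MMTV-PyMT against WTNT gave 0 short calls, with 0 of 5242 called overall (0%). At an unadjusted p under 0.05 in limma were 19, 15, 42 and 19 short clonotypes, and edgeR on reads also called 0. These were 6.33%, 5%, 14% and 6.33% of the short ones, against 5.51%, 4.94%, 9.92% and 5.28% of all tested. The median log2 of PLX+PTX against PTX was 0.34 over short clonotypes and 0.20 over all tested.

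At d95, 84 of 964 were short, and R and NR against PLX+PTX gave 0 calls (0%). In limma 5 short clonotypes (5.95%) had an unadjusted p under 0.05, against 6.64% of all tested, and edgeR called 0. TRBV26 TRBJ2-7 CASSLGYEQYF was the only short call in R against NR (2 of 964 called, 0.207%) and in PLX+PTX against PTX (1 of 964, 0.104%). Under the V name TRBV26 it had 33, 90, 103, 183 and 215 reads in the R mice and 0 in each of the 3 NR mice (log2 4.83, limma adjusted p = 0.0053). It had 30, 63 and 179 reads in the PLX+PTX mice and 0 in each of the 3 PTX mice (log2 5.02, limma adjusted p = 0.0271, lost on leaving out any of these 6 libraries). A fitted log2 against a group at 0 depends on the pseudocount and is no bound. At d95 this clonotype was found in 8 libraries, all of them R or PLX+PTX. It thus passed the presence filter only through the groups where it was high. The part of the filter in both calls was not tested. edgeR called neither.

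Summed over all V names, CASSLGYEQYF with TRBJ2-7 had 463, 513, 531, 695 and 800 reads per 1000000 in the d95 R mice, against 0, 122 and 819 in the NR mice. It had 382, 844 and 1946 reads per 1000000 in the PLX+PTX mice, against 504, 796 and 1178 in the PTX mice. The groups overlapped in both comparisons. The nucleotide form printed above stood under TRBV24 in NR replicate 3, with 106 reads, and in PTX replicates 1 and 3, with 94 and 61 reads. Merged without the V name, R against NR had a log2 of 2.74 (limma adjusted p = 0.531) and PLX+PTX against PTX one of 0.57 (limma adjusted p = 1). In that fit, chosen after the data were seen, 0 of 155 short clonotypes passed in any d95 comparison and 0 of 456 in any d105 comparison. Of every length, 0 of 2248 passed at d95 and at most 1 of 9653 at d105. At an unadjusted p under 0.05 were 8 to 16 and 18 to 58 short clonotypes, and the share over every length was not taken.

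Between days, 14 of 152 shared short clonotypes passed, 12 higher and 2 lower at d105, against 135 of 2394 of every length (5.64%). Presence was counted over the 18 d105 and 14 d95 libraries together. A clonotype could therefore pass the presence filter on d105 libraries alone, but not on d95 libraries alone. The filter thus favours clonotypes found more at d105, and its part in the balance of 12 to 2 was not tested. The median log2 was 0.36 over short clonotypes and 0.20 over all tested. Of the 12 that were higher, 9 used TRBJ2-5, which leaves the ending DTQYF and made up 34 of the 152, and 2 used TRBJ2-7, which made up 96. TRBV4 TRBJ2-5 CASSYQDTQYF led, found in 16 of 18 d105 libraries against 1 of 14 at d95, with 147 ± 128 CPM against 4.81 ± 18.003 (log2 3.18, limma adjusted p = 9.74e-06). Its leading form, shown as the strongest difference between days, has no base between V and J.
TRBV4 TRBJ2-5 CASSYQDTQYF: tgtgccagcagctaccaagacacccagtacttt
TRBV4 TRBJ2-5 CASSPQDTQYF (log2 2.43), TRBV26 TRBJ2-5 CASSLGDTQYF (2.41), TRBV3 TRBJ2-5 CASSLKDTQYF (2.28), TRBV4 TRBJ2-5 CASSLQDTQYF (2.13) and TRBV4 TRBJ2-5 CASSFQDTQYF (1.82) followed. The 2 lower ones were TRBV24 TRBJ2-7 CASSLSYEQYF (log2 -1.56, limma adjusted p = 0.0298) and TRBV19 TRBJ2-7 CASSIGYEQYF (-1.40, limma adjusted p = 0.0477). Of the 14 calls, 8 held whichever library was left out, and edgeR on reads called 1.

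Merged without the V name, 21 of 292 short clonotypes were called between days, against 420 of 5182 of every length. Short clonotypes were thus called no more often than those of every length in this fit. The median log2 was 0.44 over short clonotypes and 0.40 over all tested. All 21 were higher at d105, and neither of the 2 lower calls passed. The imbalance of the presence filter applies to this direction as well. Among the 21 were TRBJ2-5 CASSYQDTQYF (log2 2.75, limma adjusted p = 0.000481), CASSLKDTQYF (2.53, adjusted p = 0.0003), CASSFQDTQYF (2.47, adjusted p = 0.0003) and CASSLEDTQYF (2.35, adjusted p = 0.00087). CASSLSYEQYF with TRBJ2-7 had a log2 of -0.40 (limma adjusted p = 0.531) and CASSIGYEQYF one of -1.30 (adjusted p = 0.0504). Of those higher with the V name, TRBJ2-5 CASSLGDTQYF (1.61, limma adjusted p = 0.0583) and TRBJ2-1 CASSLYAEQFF (0.69, adjusted p = 0.375) did not pass without it. These clonotypes were found in fewer d95 libraries, which held fewer reads. The parts of sequencing yield and range of mouse numbers in the difference cannot be told apart from day.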

How the data were processed

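TRB libraries from genomic DNA of 37 mice were read as deposited. Per the file headers, each table lists per clonotype the CDR3, its segments and its reference points, the clone count, in counts of reads without normalization, and a normalized clone count. The latter is a score the authors made from the count. Its ratio to the count was fixed within a V-J pair (0.207 to 75.5 over 147 pairs) and the same across libraries within 4.60%. For the aligner, clonotype caller, genome build and derivation of these factors, the sources used here give nothing.

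Shares were computed from counts and compared by permutation tests, exact up to 100000 regroupings, with Benjamini-Hochberg adjustment over 16 tests and a threshold of 0.05. Measures within libraries used sign flips, adjusted over 3 tests. Segments with at least 0.5% of reads were tested with edgeR 4.0.16 (quasi-likelihood, library size as reads of the class), shared clonotypes with limma 3.58.1 in R 4.3.3. Reads of a segment are sums over clonotypes, and single clones weigh on them. Alternatives were limma on log2 percent plus 0.1, TMM, DESeq2 1.42.0, counting once, no filter, a limit of 10 residues, thinning to 222369 reads (36 libraries), a pseudocount of 1, presence in 80% of libraries, the authors' normalized clone count and leaving out each library. Clonotypes with at least 2 reads and merging without the V name were added after seeing the data. Fits were tested on simulated data.

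Named segments had at least 5% of short reads, were the 5 largest per direction or were called between days; TRBV23 was named after its values were seen. Named clonotypes were calls in the shared fit (up to 10 per direction, examples given), the 10 in most libraries, each group's largest, the most widespread at each length of 8 or fewer and those beside the limit; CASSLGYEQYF across V names was followed after its values were seen. The members and lists were chosen with earlier results of these data known. Libraries held 90648 to 2831566 reads. Replicate numbers follow the order of deposition. No sample was dropped from a fit, except where thinning is named.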

Additional observations from a re-analysis of the deposited data

Results flagged for a closer look

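In the d95 R group, replicate 3 had 5.65% of reads in short clonotypes, while the other 4 mice had 5.04% to 5.21%. Chance sets apart about 1 in 20 groups by this criterion, and 25 sets of groups and measures were examined. The effect of PLX+PTX against PTX on the share of reads differed between days by 0.961 percentage points (0.639 at d105 and -0.322 at d95, permutation of days within treatments, p = 0.0042, adjusted p = 0.0252 over 6 tests). By the normalized clone count the effect was 0.442 at d105 and 0.123 at d95, with the same sign, and within mouse-number blocks the d105 effect by reads was 0.386. The 5 other contrasts had adjusted p-values of at least 0.584 by the same permutation test. Within short reads, the R against NR effect on TRBV26 differed between days by -0.82 on the log2 scale (edgeR interaction, adjusted p = 0.047). It was the only call among 22 segments, and it carries the limit of V names. For TRBV26 TRBJ2-7 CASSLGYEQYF the same contrast differed by -6.21 (limma interaction, adjusted p = 0.0303), and merged without the V name the difference was -2.70 (limma adjusted p = 0.505). This clonotype was the only call among 152 short ones. It had 0 reads under TRBV26 in all 3 d95 NR mice, so the -6.21 depends on the pseudocount. The other contrasts gave 0 calls of either kind.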

How the results depend on the processing

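No paired analysis was possible because replicate numbers only follow the order of deposition and pair no mice. For shares of reads, a limit of 10 residues turned the difference to 0.0186 percentage points in d105 R against NR, -0.0721 in d95 R against NR and -0.0438 in d95 R and NR against PLX+PTX. The normalized clone count turned it to -0.0802 in d95 R against NR, -0.249 in d95 R and NR against PLX+PTX, 0.123 in d95 PLX+PTX against PTX and -0.479 between days, of which only the last passed. For shares counted once, d105 R against NR turned to 0.00833 with a limit of 10 residues and 0.0184 after thinning, d95 R against NR to 0.0544 after thinning, and d95 PLX+PTX against PTX to -0.0450 with at least 2 reads. The limit of 10 residues turned publicness to -5.80 and nucleotide forms to -0.747. Segments called within short reads numbered 1 in d105 R and NR against PLX+PTX with limma and with no filter, 1 in d105 PLX+PTX against PTX counted once and with no filter, 1 in d105 MMTV-PyMT against WTNT with DESeq2, and 2 between days counted once. Shared short clonotypes numbered 2 in d105 PLX+PTX against PTX with presence in 80% of libraries. The d95 calls of R against NR and of PLX+PTX against PTX fell to 0 each with a pseudocount of 1, edgeR on reads, presence in 80% of libraries and merging without the V name. Between days edgeR gave 1, presence in 80% gave 0 and merging without the V name gave 21. In short against longer clonotypes, TRBJ2-5 turned to 0.27 (DESeq2) and 0.057 (TMM), TRBV23 to 0.39 (counted once) and 0.023 (DESeq2), TRBV24 to 0.19 (DESeq2) and TRBV3 to -0.15 (counted once). Leaving out each library in turn gave -0.128 to 0.0791 for reads in d105 R against NR, 0.278 to 0.345 in MMTV-PyMT against WTNT, -0.0219 to 0.244 in d95 R against NR and -0.0106 to 0.219 in d95 R and NR against PLX+PTX. Counted once it gave -0.542 to 0.0201 in d95 R against NR and -0.123 to 0.208 in d95 PLX+PTX against PTX. Segment calls ranged from 0 to 1 in d105 R and NR against PLX+PTX and in MMTV-PyMT against WTNT, and from 0 to 3 in d95 R and NR against PLX+PTX, with 3 only without d95 PLX+PTX replicate 1. Shared calls ranged from 0 to 1 in d105 PLX+PTX against PTX, with 1 only without d105 PTX replicate 1, stayed at 0 in d95 PLX+PTX against PTX, and ranged from 10 to 15 between days. The cause was not tested, except that 80% presence leaves fewer clonotypes to test. The other 141 values of comparisons were kept: differences held their direction and side of the threshold, and numbers of calls were equal or close. Which features made up those numbers was not compared. Low read numbers at d95 limit what can be found there.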
